A study of Mus musculus with 6 samples.

Results

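The collagen genes of embryonic mouse back skin were compared between embryos with 1 and with no intact copy of Fzd6, the gene of the Frizzled 6 receptor. Members were all genes whose symbol in the annotation of the array is Col, a number, a and a number, without Col7a1 and Col17a1, which anchor the epidermis to its basement membrane. This rule gave 40 genes of the 18193 named genes measured, read by 80 probe sets, and each gene was represented by its brightest probe set over all 6 arrays. They were grouped as 11 fibrillar, 9 network, 9 fibril-associated and 11 other collagens. RNA came from the back skin of E15.5 embryos of a mixed C57BL6/129 background and was hybridised to Affymetrix MOE430 2.0 arrays, which read each transcript with sets of short probes. The control group was Fzd6 +/- (3 arrays) and the knockout group Fzd6 -/- (3 arrays), so both groups carried at least 1 mutant copy and no wild-type skin was compared. The labels call the arrays of a group biological replicates and give numbers 1 to 3 in each. No source used here says whether a sample was 1 embryo or a pool or which were littermates, so p-values measure the spread between these samples only.

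Collagens are trimers of chains wound into a triple helix through a repeating glycine. Fibrillar collagens, chiefly types I, III and V in skin, assemble into the banded fibrils that give the dermis its tensile strength. Network collagens such as type IV build the sheet of basement membranes, and fibril-associated collagens decorate fibril surfaces. The remaining members include the beaded filaments of type VI, the basement membrane collagens XV and XVIII and collagens that span the cell membrane. Dermal fibroblasts make most of the interstitial chains, and the alpha 1 and alpha 2 chains of type IV line vessels as well as epithelia.

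Upstream sequences are shown for 4 members, because 3 of them (Col1a2, Col3a1 and Col6a1) varied together between arrays and 1 (Col24a1) had the lowest difference of the fibrillar group. They are the 250 bases before the start site in RefSeq (GRCm38.p6): Col1a2 at chr6:4505368-4505617 on the plus strand, Col3a1 at chr1:45311288-45311537 on the plus strand, Col6a1 at chr10:76726045-76726294 on the minus strand and Col24a1 at chr3:145292222-145292471 on the plus strand. Capitals mark the letters CCAAT. They also mark TATAAA, the core of a TATA box. They further mark GGGCGG, the core of a GC box, and each motif was searched on both strands.
Col1a2: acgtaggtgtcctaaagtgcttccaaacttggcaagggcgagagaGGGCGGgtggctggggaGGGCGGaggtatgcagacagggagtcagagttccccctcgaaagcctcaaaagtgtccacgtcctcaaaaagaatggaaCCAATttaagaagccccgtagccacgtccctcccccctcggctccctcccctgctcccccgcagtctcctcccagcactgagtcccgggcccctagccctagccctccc
Col3a1: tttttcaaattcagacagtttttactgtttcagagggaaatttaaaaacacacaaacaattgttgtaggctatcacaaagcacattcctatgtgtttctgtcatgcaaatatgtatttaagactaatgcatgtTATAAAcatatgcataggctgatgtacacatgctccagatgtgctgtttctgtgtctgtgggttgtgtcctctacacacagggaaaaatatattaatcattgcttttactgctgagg
Col6a1: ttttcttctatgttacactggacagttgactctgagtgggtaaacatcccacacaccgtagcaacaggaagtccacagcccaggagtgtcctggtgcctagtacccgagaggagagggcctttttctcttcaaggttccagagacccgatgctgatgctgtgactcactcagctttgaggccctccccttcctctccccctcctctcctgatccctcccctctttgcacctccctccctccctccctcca
Col24a1: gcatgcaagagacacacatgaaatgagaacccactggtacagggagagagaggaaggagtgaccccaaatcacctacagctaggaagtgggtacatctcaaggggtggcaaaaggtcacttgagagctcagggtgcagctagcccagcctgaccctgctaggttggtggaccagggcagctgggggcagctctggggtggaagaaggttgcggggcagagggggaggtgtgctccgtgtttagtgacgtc
Col1a2 held 2 GC box cores, beginning 205 and 188 bases before the start, and 1 CCAAT at 109. Col3a1 held 1 TATAAA, beginning 117 bases before the start, and neither Col6a1 nor Col24a1 held any of these letters in this window. RefSeq promoter windows, of 300 bases from 250 before to 50 after a start, were matched for 31 of the 40 members, as 34 windows. GGGCGG on either strand occurred in 21 of the 34 (61.8%) against 35.7% of all 32851 windows. CCAAT occurred in 11 (32.4% against 37.4%) and TATAAA in 4 (11.8% against 13.6%). In the printed sequences no matches overlapped, and a match is a description of letters, not of a bound site.

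The deposited values were RMA summaries on a log2 scale, between 2.39 and 14.82, with array medians of 5.99 to 6.03. Fzd6 itself, as a check of the labels, was lower in all knockout arrays than in all controls in its brightest probe set, at 9.50, 9.51 and 9.11 in controls 1 to 3 against 9.07, 9.01 and 8.71 in knockouts 1 to 3, a difference of −0.44 (95% confidence interval −0.78 to −0.11). Its dimmest probe set differed by −0.67 and the other by −0.0097, and no source used here places the probes against the deletion. Skin markers were high in both groups, with Krt5 of the basal epidermis at 12.22 to 13.07 and decorin (Dcn) of the dermis at 13.19 to 13.42. Arrays of the same number deviated together from their group means over all probe sets, with correlations of 0.568, 0.359 and 0.124 for numbers 1 to 3. The likeness was clearest for number 1, since control 2 correlated more with knockout 3 (0.422) than with knockout 2. Control 2 and knockout 3 had low Y-linked means, 3.12 and 3.15 against 7.88 to 8.39 elsewhere.

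No collagen differed between the genotypes at the adjusted threshold of 0.05. limma called 0 of 40 members, as it called 0 of all 45037 probe sets (0%), of which 2348 had an unadjusted p under 0.05. Among the members, 28 had lower and 12 higher values in the knockout, with a median difference of −0.075 on the log2 scale. Of all genes 47.6% had lower values, at a median of 0.0070. Among genes above the median level of all probe sets 56.2% had lower values, at a median of −0.019. Of the 27 members above that level 20 had lower values, at a median of −0.083. At an unadjusted p under 0.05 there was 1 member with lower values (background 1.91% of genes) and 0 with higher values (3.17%), together 1 of 40 against 5.07% of genes, and the 1 was Col19a1. These counts rested on single arrays. Without knockout 1 the counts were 16 lower and 24 higher with a median of 0.071, and without control 2 they were also 16 and 24, with 0.039. With array weights 17 were lower and 23 higher (median 0.034), and without replicate 1 of both groups 18 and 22 (0.013).

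**Figure D1:**
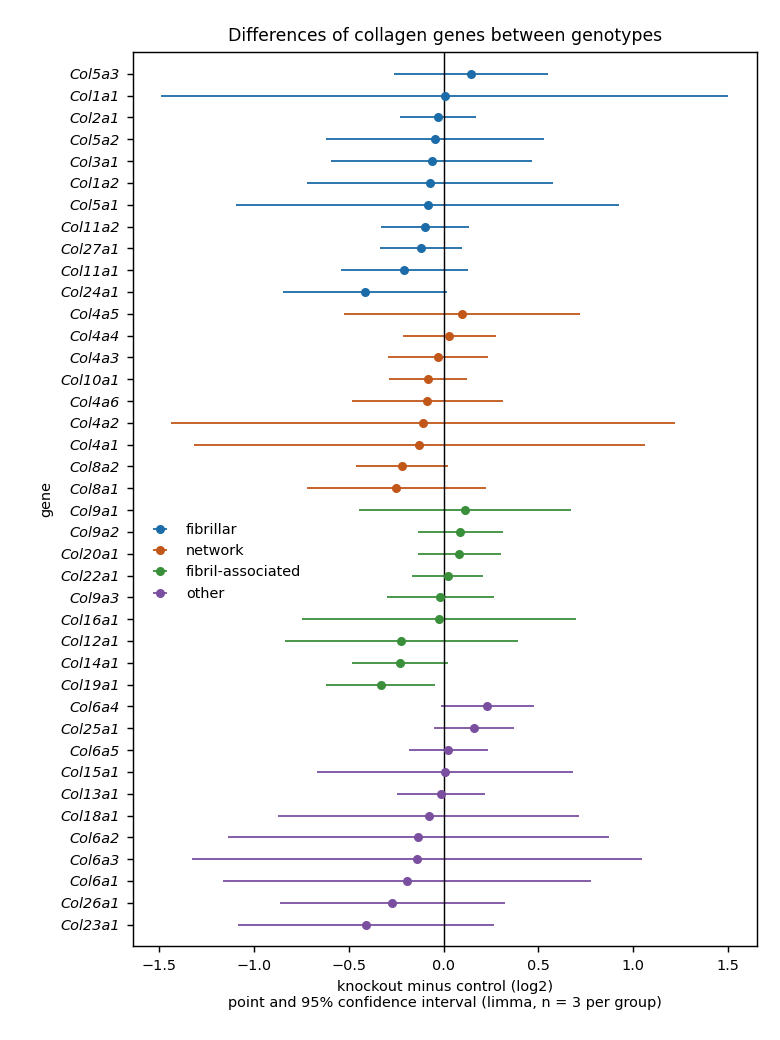
Difference between knockout and control skin (log2, horizontal axis) for each of the 40 collagen genes, coloured by group, with points for the limma estimate and lines for its 95% confidence interval from 3 arrays per group. Only the interval of Col19a1 lies wholly on one side of 0, and that of Col1a1 runs from −1.49 to 1.50.

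What many of the brighter members shared was variation between arrays within a genotype. The within-group SD had a median of 0.275 over the 40 members and of 0.135 over all genes, and it reached 1.06 in Col1a1. Its median was 0.424 in the 27 members above the median level, against 0.157 over all genes above it. In the 13 members below that level it was 0.117. Knockout 1 was the lowest of the 6 arrays in 23 of 40 members, against 23.9% of all genes. Above the median level it was the lowest in 21 of 27, against 29.0% of genes, and below it in 2 of 13. Both arrays numbered 1 were the lowest pair in 18 of 40, against 18.8% of all genes. Above the median level they were so in 17 of 27, against 24.5% of genes, and below it in 1 of 13. In the 27 members above that level the mean deviation was −0.31 in control 1 and −0.54 in knockout 1, and in the 13 below it was 0.038 and −0.060. Each member taken relative to its own mean over the arrays, the family averaged −0.20, 0.26 and 0.050 in controls 1 to 3 and −0.38, 0.16 and 0.11 in knockouts 1 to 3. The genotypes overlapped in part: knockout 1 lay below every control, control 2 above every knockout, and the lowest value of each genotype belonged to its array 1.

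**Figure D2:**
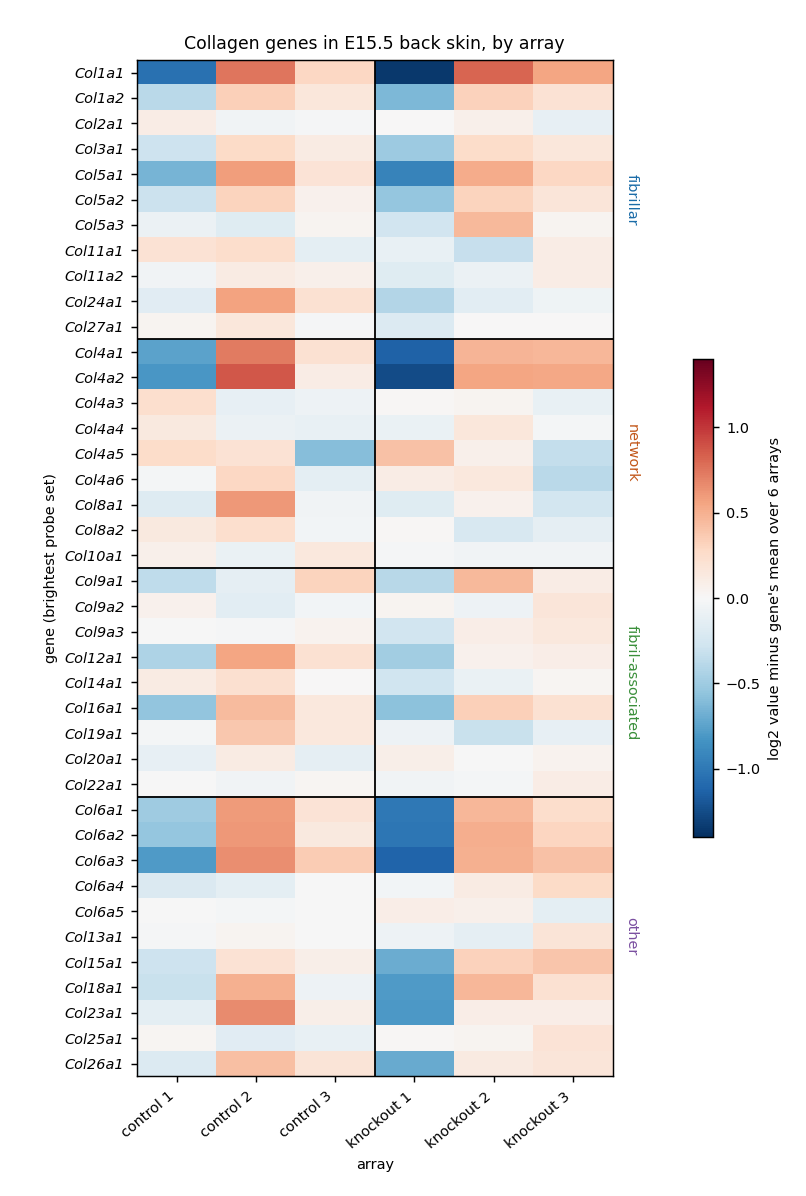
Each collagen gene's log2 value on each of the 6 arrays minus its mean over them (colour scale), with genes in rows by group and arrays in columns. Columns control 1 and knockout 1 are the lowest in rows such as Col1a1, Col1a2, Col3a1, Col5a1, Col5a2, Col4a1, Col4a2, Col6a1, Col6a2 and Col6a3, where Col1a1 spans 2.17 between its extremes, while rows such as Col22a1 span 0.16.

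Markers of vessels, and on average those of dermis, were also low in the arrays numbered 1. Of 13 endothelial markers, 12 were lowest in knockout 1, against 29.0% of genes above the median level. The mean deviation of the 13 was −0.47 in control 1, −0.91 in knockout 1 and 0.29 to 0.37 elsewhere. Their mean level ran from 7.61 to 8.44 in controls and from 7.16 to 8.45 in knockouts, and none lay below the median of all probe sets. Of 15 measured fibroblast markers that are not collagens, 11 were lowest in knockout 1, against the same 29.0%. The 15 had mean levels of 11.14 to 11.42 in controls and 10.93 to 11.42 in knockouts. Both arrays numbered 1 were the lowest pair in 7 of the 15, against 24.5% of genes above the median level. The fibroblast markers were unequal among themselves. Decorin (Dcn) spanned 0.23, lumican (Lum) 0.30 and periostin (Postn) 0.35 over the 6 arrays, all at levels above 12, whereas the transcription factors Twist1 and Twist2 spanned 1.32 and 1.21 and the surface protein Thy1 1.07. The microfibril protein Mfap5 was highest in the same arrays, with 8.64 in knockout 1, 8.35 in control 1 and 7.35 to 7.86 elsewhere. Fap was highest in knockout 1 (10.32). Crabp1 was highest in control 1 (13.04) but lowest in knockout 1 (12.50). The 8 pericyte and smooth muscle markers averaged −0.20 in control 1, −0.24 in knockout 1 and −0.0058 to 0.20 elsewhere. Other lists had other orders. The 13 skeletal muscle markers were lowest in knockout 2 (−0.56) and control 1 (−0.32). The 5 adipocyte markers averaged 1.04 in control 1 and −0.35 to −0.090 elsewhere, with the adipokine Adipoq at 8.64 in control 1 and 3.32 to 3.48 on all other arrays. Markers of the suprabasal epidermis divided by genotype, at −0.32, −0.34 and −0.16 in controls 1 to 3 and 0.69, 0.099 and 0.024 in knockouts 1 to 3. Of these 12 markers 11 had higher values in the knockout, 9 without overlap (6.99% of all genes) and 8 at an unadjusted p under 0.05 (3.17%), and limma called 0 after adjustment. The list was chosen with earlier results of these data known. Its markers were read from the same 6 arrays, so they are not separate observations of the genotypes. The part of these markers in the collagen values was not tested. In bulk RNA, fewer cells of a type and less RNA per cell cannot be told apart.

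Among the fibrillar collagens, 9 of 11 had lower and 2 higher values in the knockout, with a median of −0.071, and none passed the test (limma called 0 of 11). Col1a1, the alpha 1 chain of type I collagen and with it the main fibril component of skin, was at 10.24, 12.04 and 11.58 in controls 1 to 3 and at 9.94, 12.10 and 11.84 in knockouts 1 to 3. Both arrays numbered 1 lay more than 1 below the rest and the genotypes overlapped. The difference was 0.0053 (−1.49 to 1.50, limma adjusted p = 0.999), an interval that on the linear scale runs from 0.355-fold to 2.83-fold. Without knockout 1 it was 0.68 and without control 1 it was −0.52. Col1a2, the partner chain of type I, was at 13.64, 14.35 and 14.17 in controls and 13.39, 14.34 and 14.22 in knockouts (−0.071, −0.72 to 0.58). Col3a1, whose homotrimer forms the fine fibrils of embryonic dermis, was at 13.84, 14.41 and 14.25 against 13.63, 14.40 and 14.29 (−0.063, −0.59 to 0.47). Without knockout 1 the differences of Col1a2 and Col3a1 were 0.23 and 0.18. In both, the same arrays were low, within a smaller span and near the highest value of any probe set, 14.82. Dimmer probe sets of the same genes, with means of 12.79 for Col1a2 and 11.70 for Col3a1, spanned 1.23 and 1.20 between arrays where the brightest spanned 0.96 and 0.78. The dimmest probe set of Col1a2, with a mean of 8.18, spanned 1.00. It was lowest in knockout 1 (7.74) and next lowest in control 3 (7.94), with control 1 at 8.15.

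The chains of type V, which nucleate fibrils and set their diameter, followed the same order. Col5a1 was at 10.81, 12.05 and 11.66 in controls and 10.53, 11.98 and 11.76 in knockouts, a difference of −0.083 (−1.09 to 0.93). Col5a2 was at 11.79, 12.41 and 12.16 against 11.55, 12.41 and 12.26 (−0.045, −0.62 to 0.53). Both were lowest in knockout 1 and next lowest in control 1, with the genotypes overlapping. Without knockout 1 the differences were 0.36 and 0.22, and without control 1 they were −0.43 and −0.21. Col5a3, a minor chain of the type, had the largest positive difference of the group at 0.15 (−0.26 to 0.55), from 6.05, 5.97 and 6.17 to 5.87, 6.59 and 6.18, and only knockout 2 lay above the others, without which the difference was −0.044. Its dimmer probe set differed by −0.057. Col27a1, a fibrillar collagen with a shorter helix, was steady at 8.74, 8.87 and 8.70 against 8.52, 8.72 and 8.71 (−0.12, −0.34 to 0.099), with knockout 1 lowest.

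Col24a1, a minor fibrillar collagen known from developing bone and cornea, had the most negative difference of all members, −0.41 (−0.85 to 0.017, limma adjusted p = 0.909), at values below the array medians. It was at 4.64, 5.36 and 5.01 in controls and at 4.39, 4.64 and 4.73 in knockouts, so that control 1 lay among the knockouts. The fibrillar collagens known from cartilage lay below the array medians. Col2a1, the fibril chain of cartilage, lay between 5.64 and 5.85 on all arrays, Col11a1 between 5.34 and 5.90 and Col11a2 between 4.90 and 5.19. Of 12 other cartilage markers, 10 lay below the median of all probe sets, with mean levels of 4.84 to 4.90 in controls and 4.88 to 4.93 in knockouts. Matrilin 1 (Matn1) lay at 3.06 to 3.20 and aggrecan (Acan) at 5.31 to 5.70. RMA values have no zero and detection calls were not made, so such levels cannot be told from background.

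The network collagens had different orders of arrays by chain. Of 9 members 7 had lower and 2 higher values in the knockout (median −0.085), and limma called 0. Col4a1 and Col4a2, the chains found in nearly every basement membrane including that of vessels, were the most variable. Col4a1 was at 10.73, 12.21 and 11.69 in controls and 10.35, 11.96 and 11.94 in knockouts, with a difference of −0.13 (−1.32 to 1.06). Col4a2 was at 9.43, 11.10 and 10.34 against 8.99, 10.79 and 10.77 (−0.11, −1.44 to 1.22). In both, the arrays numbered 1 were far below the rest of their genotype, and leaving out knockout 1 gave differences of 0.41 and 0.49.

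Col4a5 and Col4a6, X-linked chains that join into the network of the epidermal basement membrane, had another order. Col4a5 was at 9.11, 9.05 and 8.25 in controls and at 9.26, 8.93 and 8.51 in knockouts, a difference of 0.098 (−0.52 to 0.72). Its lowest arrays were those numbered 3, and knockout 1 was its highest. Without control 3 the difference was −0.18 and without knockout 1 it was −0.083. Col4a6 was at 6.46, 6.78 and 6.35 against 6.59, 6.63 and 6.11 (−0.085, −0.48 to 0.31), lowest in knockout 3 and next lowest in control 3, and its other probe set differed by 0.18. Without knockout 3 its difference was 0.082 and without control 2 it was 0.039. The 8 basal epidermis markers averaged −0.36 in control 3, −0.18 in knockout 3 and 0.045 to 0.21 elsewhere, and their part in these values was not tested. The arrays with the low Y-linked mean, control 2 and knockout 3, fell on opposite sides for Col4a5, at 9.05 and 8.51. Col4a3 and Col4a4, chains known from kidney and lung basement membranes, lay between 4.23 and 4.99 on every array, below the array medians.

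**Figure D3:**
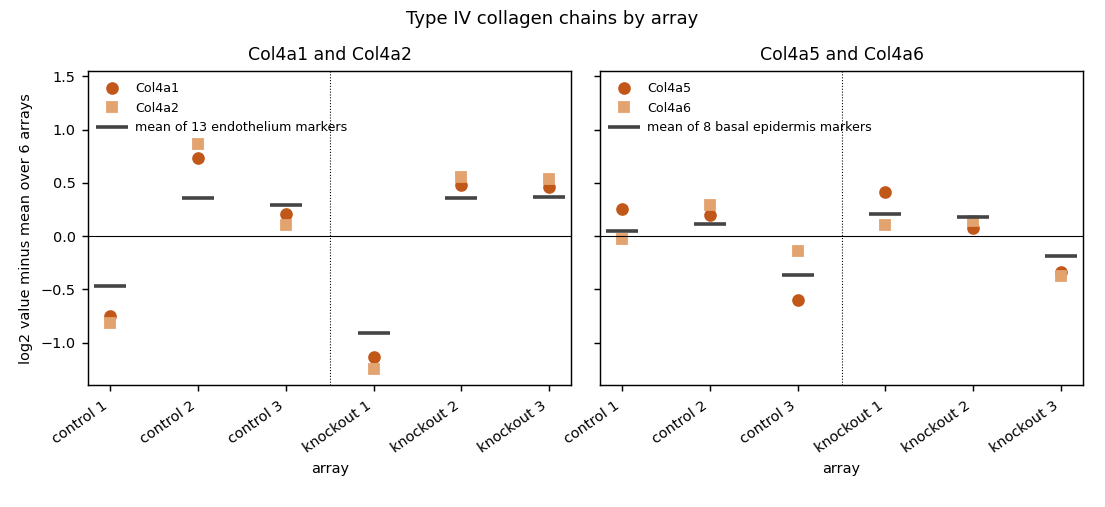
Log2 values of type IV collagen chains on each array minus their mean over the 6 arrays (vertical axis), with horizontal bars for the mean of endothelial (left) or basal epidermis (right) markers. Col4a1 and Col4a2 are lowest in control 1 and knockout 1, at −0.75 and −1.13 for Col4a1, whereas Col4a5 is lowest in control 3 and knockout 3, at −0.60 and −0.34.

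Col8a1, a short-chain network collagen of vessel walls and mesenchyme, was at 8.36, 9.14 and 8.49 in controls and 8.37, 8.60 and 8.28 in knockouts (−0.25, −0.72 to 0.23). Control 2 alone stood above the other 5 arrays, and without it the difference was −0.0094. Its partner Col8a2, dimmer than the array medians, differed by −0.22 (−0.46 to 0.024). Col10a1, the collagen of hypertrophic cartilage, lay between 4.38 and 4.63 throughout.

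Of the 9 fibril-associated collagens 5 had lower and 4 higher values (median −0.018), with 0 called by limma. Col19a1, a collagen of basement membrane zones and of differentiating muscle, was the only member of the family whose genotypes did not overlap, against 4.31% of all genes without overlap and lower in the knockout and 6.99% without overlap and higher. It was at 6.11, 6.51 and 6.28 in controls and at 6.06, 5.82 and 6.02 in knockouts. The gap was narrow, with knockout 1 just below control 1. The difference was −0.33 (−0.62 to −0.043, limma adjusted p = 0.909), with an unadjusted p of 0.0295, and between arrays numbered 1, 2 and 3 it was −0.046, −0.69 and −0.26. Its other probe sets, both dimmer, also had all knockout arrays below all controls, with differences of −0.48 and −0.14. All of these readings lay close to or below the array medians.

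Col14a1, or undulin, which binds decorin on fibrils, was at 9.50, 9.61 and 9.38 in controls and 9.10, 9.29 and 9.42 in knockouts (−0.23, −0.48 to 0.023, limma adjusted p = 0.909). Knockout 3 lay within the controls, and dimmer probe sets with means of 8.42 and 5.12 differed by −0.11 and 0.053. Col12a1, its relative on type I fibrils, was at 9.08, 10.06 and 9.72 against 9.02, 9.57 and 9.61 (−0.22, −0.84 to 0.39), lowest in the arrays numbered 1. Without control 2 the difference was −0.0013, and the 3 dimmer probe sets of the gene gave −0.078, −0.022 and 0.055. Col16a1, found on microfibrils near the dermal junction, shared that order, at 8.49, 9.48 and 9.19 against 8.46, 9.37 and 9.26 (−0.024, −0.75 to 0.70). Col9a1, a chain of the type IX collagen on cartilage fibrils, had the largest positive difference of the group at 0.11 (−0.45 to 0.67). Its values were 6.26, 6.49 and 6.93 in controls and 6.24, 7.07 and 6.72 in knockouts, overlapping fully. The other chains of that type, Col9a2 and Col9a3, differed by 0.089 and −0.018. Col20a1 differed by 0.082 (−0.14 to 0.30), from 6.33, 6.57 and 6.33 to 6.54, 6.44 and 6.50, and Col22a1, a collagen of tissue junctions, by 0.022 (−0.17 to 0.21).

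In the remaining group of 11, 7 members had lower and 4 higher values (median −0.079), and limma called 0. The 3 chains of type VI collagen, which assemble with each other into beaded filaments around cells, were measured at 11.16, 12.25 and 11.85 in controls and 10.66, 12.12 and 11.91 in knockouts for Col6a1. Col6a2 was at 11.38, 12.52 and 12.05 against 10.91, 12.43 and 12.22, and Col6a3 at 11.28, 12.72 and 12.43 against 10.95, 12.58 and 12.49. All had the same 2 low arrays, and their differences were −0.19 (−1.16 to 0.78), −0.13 (−1.14 to 0.87) and −0.14 (−1.33 to 1.05). Without knockout 1 these became 0.26, 0.34 and 0.39, and without control 2 they were 0.058, 0.14 and 0.15. The later chains Col6a4 and Col6a5 were dim and did not share the order. Col6a4 had the most positive difference of all members, 0.23 (−0.015 to 0.48, limma adjusted p = 0.909), from 5.49, 5.56 and 5.69 to 5.66, 5.80 and 5.97, and its dimmer probe set gave 0.014.

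Of the transmembrane collagens, Col23a1, known from epidermal keratinocytes, was at 7.60, 8.40 and 7.82 in controls and 6.93, 7.83 and 7.83 in knockouts. Its difference was −0.41 (−1.09 to 0.26, limma adjusted p = 0.917), with −0.35 and −0.45 in its other probe sets, and it was −0.11 without knockout 1. Knockout 1 was lowest and control 2 highest, and the others lay between 7.60 and 7.83. Col13a1, of cell contacts, lay between 4.68 and 4.99 on all arrays. Col25a1, made by neurons and known from motor innervation of muscle, was at 6.99, 6.81 and 6.87 against 6.99, 7.01 and 7.16 (0.16, −0.049 to 0.37). A dimmer probe set of Col25a1 read the other way, by −0.65 (−1.34 to 0.047), from 6.02, 7.25 and 6.88 to 5.84, 6.02 and 6.36, so the gene's direction differed between its probe sets.

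The basement membrane collagens XV and XVIII, both carriers of heparan or chondroitin sulfate, were lowest in knockout 1. Col18a1, whose end fragment is endostatin, was at 9.43, 10.23 and 9.67 in controls and 8.94, 10.20 and 9.95 in knockouts (−0.079, −0.88 to 0.72). Col15a1 was at 6.72, 7.21 and 7.09 against 6.31, 7.33 and 7.40 (0.0086, −0.67 to 0.68). Col26a1, a secreted collagen with short helical parts, was at 8.996, 9.60 and 9.36 against 8.48, 9.30 and 9.35 (−0.27, −0.87 to 0.32), and within numbers it differed by −0.51, −0.30 and −0.0055. Without knockout 1 the difference was 0.011.

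With the replicate number as a block, the fit had narrower intervals for the genes that vary with the number, and more members had an unadjusted p under 0.05: 4 lower (background 5.73%) and 1 higher (6.42%). Together these were 5 of 40 against 12.2% of genes. The limma adjusted p in that fit was 0.340 for Col24a1, 0.347 for Col23a1, 0.379 for Col19a1 and 0.388 for Col26a1, which were lower, and 0.344 for Col6a4, which was higher. None passed adjustment, while limma called 3 of all probe sets (0.00666%). In 5 of 40 members the knockout array was below the control of its number in every pair, against 17.6% of all genes, and in 1 of 40 it was above in every pair, against 19.1%.

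Genes that modify, fold, cleave and cross-link procollagen were read from a list of 34, of which 30 were measured. Of these 25 had lower and 5 higher values in the knockout (median −0.097), and limma called 0. In 20 of 30, knockout 1 was the lowest array (23.9% of all genes and 29.0% of genes above the median level, where 25 of the 30 lay). The mean deviation of the list was −0.15, 0.21 and 0.081 in controls 1 to 3 and −0.31, 0.098 and 0.073 in knockouts 1 to 3, low in the arrays numbered 1 like the average of the collagens themselves. Fkbp14, a prolyl isomerase of the endoplasmic reticulum, had the smallest p, from 9.24, 9.48 and 9.50 to 9.16, 9.18 and 9.27 (−0.20, −0.43 to 0.023, limma adjusted p = 0.909). P4ha1, a catalytic subunit of prolyl 4-hydroxylase, was at 9.49, 9.89 and 9.24 against 9.09, 9.39 and 9.24 (−0.30, −0.69 to 0.094). In Fkbp14 only knockout 3 reached the controls, and in P4ha1 control 3 lay among the knockouts. P4ha3, another such subunit, was at 6.08, 6.30 and 6.29 against 5.96, 5.97 and 6.25 (−0.17, −0.43 to 0.096). The galactosyltransferase Colgalt2 was at 6.14, 6.35 and 6.26 against 6.21, 5.89 and 6.19 (−0.16, −0.42 to 0.11), with knockout 2 below the rest. Tll1, a procollagen protease of the tolloid family, differed by 0.15 (−0.055 to 0.35) at values of 3.07 to 3.37, without overlap but near the lowest value of any probe set. It was the 1 of 30 without overlap, against 4.31% of all genes lower and 6.99% higher without overlap. In the block fit 3 of the 30 had lower values at an unadjusted p under 0.05 (5.73% of all genes) and 0 had higher (6.42%), and limma called 0.

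Cell surface receptors of collagen, 12 measured of 13 listed, had 5 lower and 7 higher values (median 0.034), with 0 called by limma. Itgb1, the beta 1 subunit shared by the collagen-binding integrins, had the smallest p, with all knockout arrays below all controls. It was the 1 of 12 without overlap, against 4.31% of all genes lower and 6.99% higher without overlap. Itgb1 was at 9.59, 9.97 and 9.83 in controls and 9.37, 9.47 and 9.57 in knockouts, a difference of −0.32 (−0.60 to −0.050, limma adjusted p = 0.909). Ddr2, the discoidin domain receptor of mesenchyme for fibrillar collagens, was at 9.13, 9.65 and 9.47 against 8.63, 9.25 and 9.23 (−0.38, −0.85 to 0.088). Within each number the knockout array was the lower, and in the block fit Itgb1 had limma adjusted p = 0.34 and Ddr2 0.335. Lair1, an inhibitory collagen receptor of leukocytes, was at 3.96, 4.08 and 3.97 against 4.07, 4.16 and 4.13 (0.12, −0.068 to 0.30). Its levels too cannot be told from background here.

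Of the 27 members read by several probe sets, 16 had the same sign of difference in all of them and 11 did not. Chains that were lowest in the arrays numbered 1 ranged from even to uneven. The spread of differences over probe sets was 0.022 in Col5a1 and 0.035 in Col4a1, but 0.12 in Col5a2, 0.17 in Col1a2 and 0.28 in Col12a1, where the sign differed. The widest spread, 0.81, was that of Col25a1, followed by 0.38 in Col8a1 and 0.34 in Col19a1. A difference given for 1 probe set therefore need not hold for others of the gene.

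**Figure D4:**
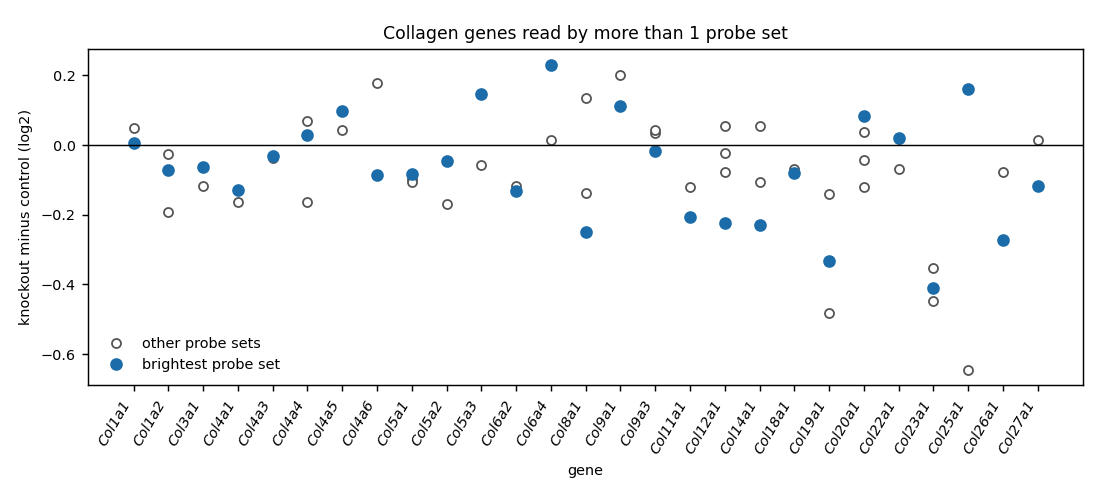
Knockout minus control difference (log2, vertical axis) of every probe set of the 27 collagen genes read by more than 1, with filled points for the brightest probe set and open points for the others. The points of Col1a1, Col4a1 and Col5a1 lie close together, and those of Col25a1 lie 0.81 apart.

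Position in the genome was not part of the rule, and 7 pairs of members are neighbours without another protein-coding gene starting between them (RefSeq, GRCm38.p6). Col4a1 (minus strand) and Col4a2 (plus strand) on chromosome 8 lie head to head, with start sites 21 bases apart in the RefSeq windows. The start of Col4a1 (11312826) lies past that of Col4a2 (11312805), so their first bases overlap, and it is not the outermost start of Col4a1. Col4a1 and Col4a2 spanned 1.87 and 2.12 over the arrays and had the same 2 low arrays. Col6a1 and Col6a2 on chromosome 10 spanned 1.60 and 1.61, and Col3a1 and Col5a2 on chromosome 1 spanned 0.78 and 0.86, each pair with the same order of its lowest arrays. Col4a5 and Col4a6 on the X chromosome shared the low arrays numbered 3. Col9a1 and Col19a1, adjacent on chromosome 1, did not go together, with differences of 0.11 and −0.33, and knockout 2 was the highest array of the first and the lowest of the second. The remaining pairs, Col4a3 with Col4a4 and Col6a4 with Col6a5, were below the array medians. These are descriptions over 6 arrays that share their RNA samples.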

How the data were processed

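Expression was measured on 6 arrays, 3 per genotype, grouped by the labels. The deposited values are log2 expression summaries made by the authors with RMA, per the submitters' processing notes, which give no version. The log base was read from the range of the values, as no source used here states it. RMA as usually run corrects background, quantile-normalises arrays and summarises probes, which can shrink differences at both ends of the scale. Of 45101 rows, 64 array controls were left out, and all other 45037 were kept whatever their level. Names came from the platform annotation: 34945 probe sets had 1 symbol, 932 several and 9160 none. Of those with 1 symbol, 34741 matched the gene table of GRCm38.p6, whose updated symbols were an alternative.

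Differences (knockout minus control) were estimated by limma 3.58.1 under R 4.3.3 (lmFit, eBayes, two-sided, no covariates), and p-values were adjusted by Benjamini-Hochberg across the 45037 probe sets, with a threshold of 0.05. The fit was tested on simulated data, with changes added to probe sets above the median level. limma called 52 of 100 with a log2 change of 1 and 88 of 100 with a change of 2, with 6 false calls. The simulated noise was independent between arrays, unlike the shared deviations of same-number arrays here. The changed probe sets were drawn from all those above the median level, not from collagens. Genes above that level had a median within-group SD of 0.157, against 0.424 in the 27 collagens above it. The shares recovered therefore need not hold for the collagens, where changes of these sizes, and smaller ones, can be missed. Values for a list are counts and medians without a test. The members and lists were chosen with earlier results of these data known. Genes given in full were the main dermal and vessel chains and, in each group, the 3 above the median of all probe sets with the smallest p, with the 5 and 3 smallest of the processing and receptor lists. Others were chosen after their values were seen. The replicate numbers were taken as pairs because all same-number correlations exceeded 0.1. No label explains the numbers, and the correlation of control 2 was higher with knockout 3 (0.422) than with knockout 2 (0.359). Alternatives were a variance trend, array weights, centring, further quantile normalisation, leaving out dim probe sets, the replicate block and a Y-linked covariate. Further ones were each array left out, both arrays numbered 1 left out, the median over all probe sets of each gene, and updated symbols. Protein sequences were not used here, and promoter windows were RefSeq's.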

Additional observations from a re-analysis of the deposited data

How the results depend on the processing

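No collagen, processing or receptor gene was called by limma in any of the 14 refitted alternatives. Over all probe sets the count at adjusted p under 0.05 moved from 0 to 3 with the replicate block and was 0 in the other refits and at a threshold of 0.1. The block changed no other call. The median of the receptor list was −0.16 in its 8 members left after dropping dim probe sets, against 0.034 over 12, where fewer genes entered. The medians of the collagen family and its 4 groups and of the processing list moved by less than the spread between arrays in every alternative run, the family's between −0.18 (without control 1) and 0.071 (without knockout 1), so the sign of that median is not fixed by these arrays. Of 22 collagens followed singly, 6 kept their sign in every alternative and 16 did not. Other probe sets entered these alternatives only as a median over each gene. Of the 6, Col8a1, Col12a1, Col14a1 and Col27a1 had a probe set of the other sign, and Col19a1 and Col23a1 did not. The other 9 genes followed (processing, receptors and Fzd6) kept theirs. Those were the genes of smallest p in their lists and the targeted gene itself. Main collagen chains were followed whatever their p, so the counts cannot be compared. A change of sign in a gene that passed in no setting was not counted as a reversal. With 3 arrays per group, intervals were wide for chains such as Col1a1, Col4a1, Col4a2, Col5a1, Col6a1, Col6a2 and Col6a3.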
